A study of Arabidopsis thaliana with 4 samples.

Results

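The line examined here carries a T-DNA insertion in CESTA (CES, AT1G25330) and is labelled as a knockout of that gene. It was measured on 2 arrays and set against 1 array of the Columbia-0 wild type, so the comparison uses 3 of the 4 arrays of the study, chosen by their labels. The fourth array is a line labelled as a CESTA enhancer trap and, by another label, also as a gene knockout; it served as a second reference for single genes. All plants had the Col-0 background and no other allele or treatment is given. The material was whole seedlings, 14 days old, kept for 2 days at 4 °C and then grown on upright agar plates with sucrose at 24 °C with a 16 h day and an 8 h night. The labels give neither the position of the insertion nor a line name, so whether both knockout arrays come from 1 insertion line, and whether plants were pooled or grown separately, is not given in the sources used here. In whole seedlings, fewer cells of a type and less RNA per cell cannot be told apart.

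CES encodes a basic helix-loop-helix (bHLH) transcription factor, a class of proteins that bind E-box and G-box sequences in promoters as dimers. In Arabidopsis CES was described as a positive regulator of brassinosteroid synthesis and of brassinosteroid-responsive genes. Brassinosteroids are steroid hormones that drive cell expansion, and loosening of the cell wall by expansins and xyloglucan endotransglucosylase/hydrolases is among the processes they promote.

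Each value is the signal intensity of 1 probe set, a group of short probes for 1 transcript, on an arbitrary linear scale. The median signal lay between 38.5 and 39.6 on the 4 arrays. The highest signal of 27 probe sets for Bacillus sequences, which have no target in the plant, was 10.6 and is called background below. Differences between groups are given on the log2(signal + 1) scale, with a standard error (SE) and an adjusted p from limma. A gene is said to have risen or fallen where that adjusted p is under 0.05, and 13648 of 22746 probe sets passed the filter on low signal and were tested. Wild type had 1 array, so the spread in every test comes from the 2 knockout arrays and the lone array is assumed to vary as they do. Shoot and root were both present by their markers. The 3 shoot markers tested (RCA, LHCB4.1 and LHCB4.2) had summed signals between 15948 and 18915, and the 2 root markers (PYK10 and EXPA7) between 3368 and 4225. Nearly all of the root sum came from PYK10. EXPA7 ran from 44.7 in wild type to 113 on the enhancer-trap array. None of these 5 genes passed the test.

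CES, the targeted gene, bears on the labels themselves. Signals of 7.29 and 5.35 were read in the knockout arrays, 0.533 in wild type, and 4124 on the enhancer-trap array. The knockout and wild-type readings all lay within background, so loss of the transcript could not be checked in these seedlings. The fit gave a difference of 2.24 (adjusted p = 0.00057), but no fold is given because both sides were within background. The CES probe set was tested at all only because its high signal in the enhancer-trap array lifted its mean over the filter.

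Few transcripts separated the knockout from wild type. The test was passed by 25 probe sets, CES included (0.183% of those tested), of which 17 were above wild type (0.125%) and 8 below it (0.0586%). Against the enhancer trap 817 passed (5.99%). Of the 25, 13 carry 1 annotated gene. In all of these 13 but AT4G19430, the single wild-type array was the lowest or the highest of all arrays. A difference of the knockout line and a departure of that 1 array from other wild-type plants cannot be told apart. At least 2-fold away from wild type were 62 probe sets in knockout replicate 1 and 95 in knockout replicate 2, while 83 differed at least 2-fold between the knockout arrays themselves. The median absolute difference was 0.16 and 0.17 between each knockout array and wild type and 0.17 between the knockout arrays. These differences between replicates were thus of similar size to those between genotypes. Both knockout arrays lay on the same side of wild type for 8959 tested probe sets (65.6%), and for 4379 of them (32.1% of those tested) the smaller of the changes exceeded the difference between the knockout arrays. At least 2-fold away on the same side in both arrays were 12 (0.0879%), 7 higher and 5 lower. Of these 12, 7 passed the test.

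**Figure D1:**
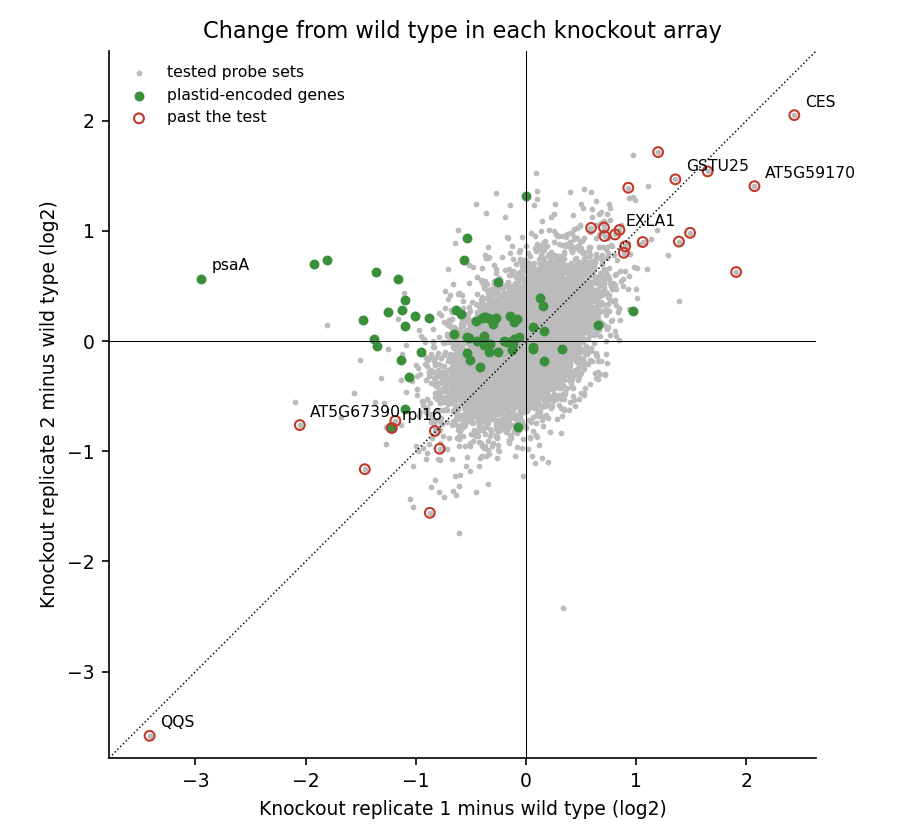
Change from wild type on the log2 scale in knockout replicate 1 (horizontal axis) and knockout replicate 2 (vertical axis) for 13648 tested probe sets (grey), with plastid-encoded genes in green and the 25 probe sets past the test ringed in red. QQS lies alone near the dotted line of equal change at the lower left, while many plastid-encoded genes, psaA the farthest, lie to the left of the line because they were lower in replicate 1 only.

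The largest change was in QQS (AT3G30720), an orphan gene found only in Arabidopsis thaliana, whose product affects how much starch leaves accumulate. Its signal was 13.6 and 11.97 in the knockout arrays against 154 in wild type. Both knockout readings lay just above background, and the arrays differed from each other by 0.17. The gene passed the signal filter only through the wild-type array, where it was high. QQS fell by 3.50 (SE 0.350, adjusted p = 1.27e-08), which is 11.3-fold. The enhancer-trap array read 14.2, and its difference from the knockout was -0.15 (SE 0.35, adjusted p = 0.907), so wild type alone was high.

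AT4G19430 read 16.7 and 20.8 in the knockout arrays, 47.7 in wild type, and 214 on the enhancer-trap array. It fell by 1.31 against wild type (SE 0.285, adjusted p = 0.0249), and the knockout arrays were the lowest of the 4. In the fit of the knockout and wild-type arrays alone its adjusted p was 0.139. AT5G67390 read 27.8 and 69.4 against 118 in wild type. It fell by 1.41 (SE 0.305, adjusted p = 0.0249), although its knockout arrays differed by 1.29, nearly as much as the change itself.

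AT1G26250, an extensin-like gene of the proline-rich cell wall proteins, read 153 and 134 in the knockout arrays against 264 in wild type, and 259 on the enhancer-trap array. Both knockout arrays were thus lower than both other arrays. It fell by 0.88 (SE 0.180, adjusted p = 0.0136), and it was also lower than in the enhancer trap, at -0.85 (adjusted p = 0.00116). Its neighbour AT1G26240 read 26.5 and 21.6 against 23.9, on either side of wild type. The plastid gene rpl16, which encodes protein L16 of the large ribosomal subunit, read 168 and 226 against 391.6. It fell by 1.00 (SE 0.179, adjusted p = 0.0028), with the enhancer-trap array between the lines at 254.

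Among the rises, GSTU25 (AT1G17180) had the smallest adjusted p. It encodes a tau-class glutathione transferase, an enzyme class that conjugates glutathione to reactive and foreign compounds. Its signal was 211 and 228 in the knockout arrays, 81.7 in wild type, and 135 on the enhancer-trap array. GSTU25 rose by 1.41 against wild type (SE 0.189, adjusted p = 1.89e-05), or 2.66-fold, and the knockout arrays differed by only 0.11. It was also higher than in the enhancer trap, by 0.69 (SE 0.19, adjusted p = 0.0159). The adjacent tau-class gene GSTU26 read 163 and 143 against 120 in wild type, a difference of 0.34 that did not pass (adjusted p = 0.96).

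AT2G34930, which encodes a protein with leucine-rich repeats, read 46.4 and 66.8 in the knockout arrays against 19.6 in wild type. It rose by 1.46 (SE 0.308, adjusted p = 0.0208), and the enhancer-trap array read 30.5. AT5G59170 read 44.9 and 27.9 against 9.91 in wild type, which is within background, so it was at least 3.34-fold higher (adjusted p = 0.0136). The enhancer-trap array read 35.8, between the knockout arrays.

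EXLA1 (AT3G45970), an expansin-like gene of the cell wall, read 862 and 962 in the knockout arrays against 491 in wild type. It rose by 0.89 (SE 0.154, adjusted p = 0.00176), and the enhancer-trap array was the highest of the 4, at 1221. AT3G45710, of the nitrate and peptide transporter family, read 243 and 237 against 130.0 and rose by 0.88 (SE 0.176, adjusted p = 0.0133). Its knockout arrays differed by 0.04, the smallest gap among the named genes past the test, and the enhancer-trap array read 242.

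AT5G25240 read 178 and 199 in the knockout arrays against 98.6 in wild type and rose by 0.93 (SE 0.187, adjusted p = 0.0133). The protein kinase gene AT3G59350 read 185 and 219 against 112 and rose by 0.83 (SE 0.187, adjusted p = 0.0319). In both genes the enhancer-trap array, at 186 and 173, was far nearer to the knockout than to wild type. Differences between knockout and enhancer trap were 0.02 (adjusted p = 0.983) and 0.21 (adjusted p = 0.677).

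**Figure D2:**
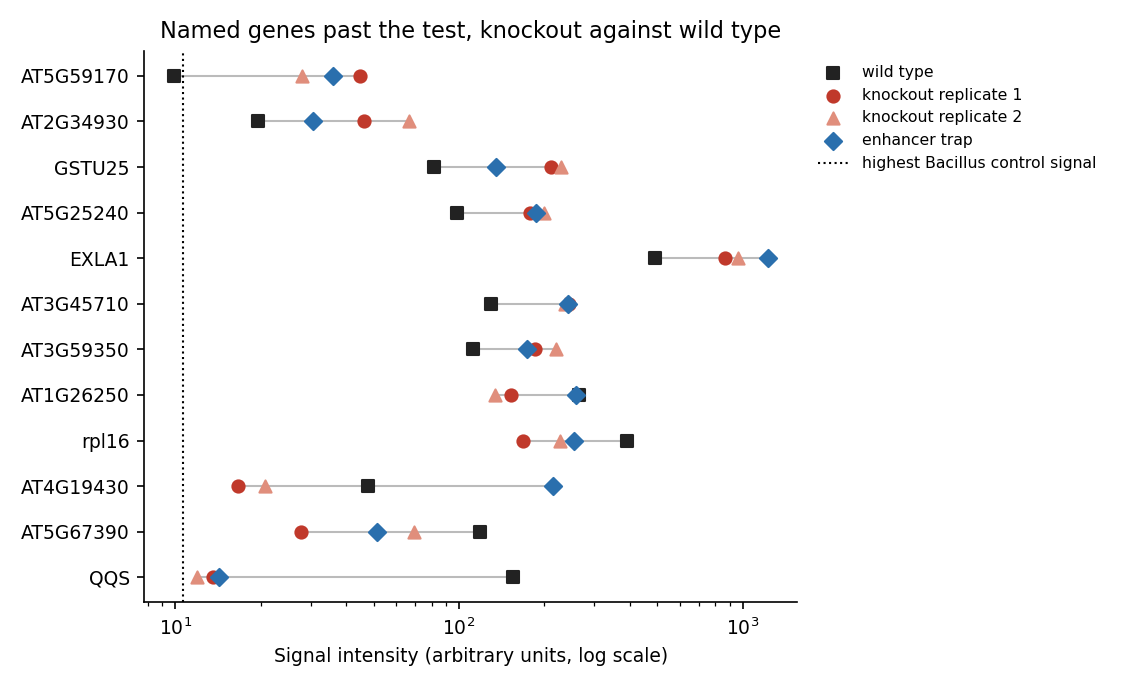
Signal intensity (log axis) of the 12 named genes past the test other than CES, with 1 symbol per array; the dotted line is the background of 10.6. In GSTU25 the knockout arrays lie at 211 and 228 and the enhancer trap at 135, whereas in QQS, AT3G45710 and AT5G25240 the enhancer trap lies beside the knockout arrays.

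The other 12 probe sets past the test do not carry exactly 1 gene in the annotation used, so no gene is named for them. Of those that rose, 252265_at read 32.3 and 29.9 against 9.61 in wild type, at least 2.92-fold higher (adjusted p = 0.00936), and 142 in the enhancer-trap array. Like CES it was tested only because of that array, and with a pseudocount of 16 it did not pass (adjusted p = 0.0725). Probe set 246379_s_at read 1175 and 483 against 312, a rise of 1.27 (SE 0.230, adjusted p = 0.00325) with a gap of 1.28 between the knockout arrays. Of those that fell, 251438_s_at read 499 and 310 against 915 in wild type, and 1037 on the enhancer-trap array. Its fall of 1.22 (SE 0.179, adjusted p = 8.69e-05) placed both knockout arrays below both others. Probe set 262566_at read 94.8 and 131 against 217, a fall of 0.95 (SE 0.209, adjusted p = 0.0262). For AT5G67390 and 246379_s_at alone among the 25, the smaller change did not exceed the difference between the knockout arrays.

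Many genes that differed between the knockout arrays lie in the plastid genome, which encodes core subunits of photosynthesis and part of the plastid's own ribosome and RNA polymerase. Of the 83 probe sets at least 2-fold apart between the replicates (0.608% of those tested), 17 were annotated as plastid-encoded. All 17 were lower in replicate 1. They are 25.8% of the 66 plastid-encoded genes tested. The median plastid signal was 540.0 in replicate 1 and 896 in replicate 2, against 764 in wild type, and 727 on the enhancer-trap array. Replicate 1 was below replicate 2 for 58 of the 66 genes and below wild type for 55, whereas replicate 2 was below wild type for 22. Whether this comes from the plants or from the handling of 1 sample was not tested.

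psaA, for a reaction-centre protein of photosystem I, read 67.9 in replicate 1 and 787 in replicate 2, with 531 in wild type, and 607 on the enhancer-trap array. psbD, for a reaction-centre protein of photosystem II, read 44.3 and 179 against 115 in wild type. atpF, for a subunit of the plastid ATP synthase, read 401 and 1058 against 1044. In each of these genes replicate 1 was the lowest array, and replicate 2 lay above wild type. All 6 ATP synthase genes were lower in replicate 1 than in replicate 2, with a median gap of -1.20, and 4 of them were 2-fold apart. The same held in direction for 5 of 5 photosystem I genes, 13 of 15 photosystem II genes and 9 of 10 genes of the NDH complex, an electron-transfer complex of the thylakoid. The 5 genes of the cytochrome b6f complex were all lower in replicate 1, with a median gap of -0.43 and 0 genes 2-fold apart. The 14 ribosomal protein genes were lower in 10 cases, with a median gap of -0.41 and 0 genes 2-fold apart. The 3 RNA polymerase genes had a median gap of -0.05.

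Against wild type the 66 plastid genes therefore had a median of -0.18, set beside -0.01 over all tested probe sets. Of the 66, 1 passed the test (rpl16), 18 were lower in both arrays, 7 were higher in both, and 41 had the knockout arrays on opposite sides of wild type. Over all tested probe sets 0.183% passed, 34.8% were lower in both arrays, 30.8% higher in both, and 34.4% on opposite sides or tied. The adjacent gene rpl14, for another large-subunit protein, read 75.8 and 106 against 164 in wild type, a difference of -0.86 (SE 0.21) that did not pass (adjusted p = 0.0796). With rpl16 it was lower than wild type in both arrays, while rps3, on the other side of rpl16, read 1700 and 1541 against 1622.

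**Figure D3:**
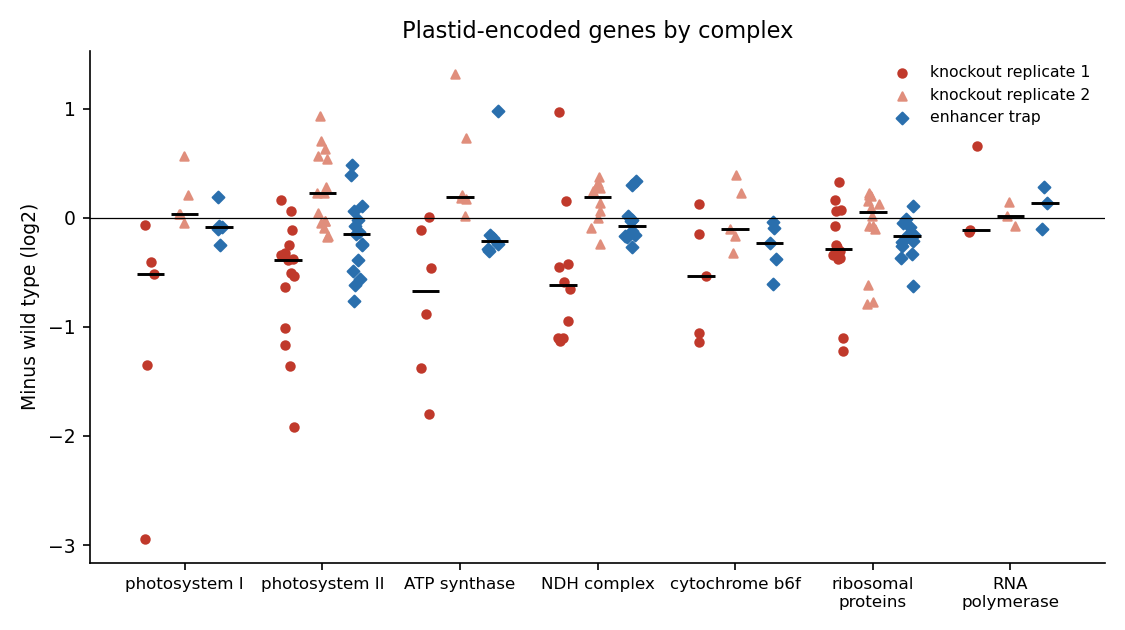
Difference from wild type on the log2 scale for plastid-encoded genes grouped by complex, in knockout replicate 1, knockout replicate 2 and the enhancer trap; each point is 1 gene on 1 array and the black bars are medians over genes. Replicate 1 lies lowest in the photosystems, the ATP synthase and the NDH complex, with psaA the lowest point, while replicate 2 lies around or above 0.

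Of 7227 tested genes, 2313 not past the test had both knockout arrays on the same side of wild type by more than their gap. This share is close to the 32.1% found over all tested probe sets. The 12 highest and 12 lowest of the 2313 genes are given as values, since none passed. Among the 12 higher ones, which differed by 0.82 to 1.26 (adjusted p between 0.123 and 0.515), the first was CW9, a disease-resistance gene of the NBS-LRR class, at 30.3 and 37.6 against 13.5 in wild type. AT2G31010 read 63.4 and 56.1 against 27.3 in wild type and 18.0 on the enhancer-trap array. It differed from the enhancer trap by 1.67 (adjusted p = 0.000124) and from wild type by 1.10 (adjusted p = 0.185). MGL, for methionine gamma-lyase, an enzyme that breaks down methionine, read 46.8 and 53.5 against 27.5. AT5G25210, close to AT5G25240 on chromosome 5, read 35.3 and 32.0 against 16.9. The others were AT5G23840, AT2G44730, AT5G51390, AT2G15830, AT3G06210, AT5G39580, AT1G15250 and AT4G24175. AT5G23840 passed the signal filter only through the enhancer-trap array, which read 42.0.

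Among the 12 lower ones the differences ran from -1.10 to -0.86 (adjusted p between 0.0511 and 0.502). AT1G04770 read 125 and 83.4 against 196 in wild type and came nearest to the threshold. TPS-CIN, for a terpene synthase that makes 1,8-cineole in roots, read 24.999 and 20.1 against 43.6 in wild type, and 68.3 on the enhancer-trap array. GLR3.6, for a glutamate receptor-like ion channel, read 15.7 and 22.4 against 39.2. AT1G57590 had nearly equal knockout readings of 38.7 and 38.0 against 70.6 and, like TPS-CIN, was lower than the enhancer trap past the test, at -1.43 (adjusted p = 0.0001) against -1.56 (adjusted p = 0.000482) for TPS-CIN. The others were AT1G05170, AT3G28500, AT3G27270, AT2G43850, AT5G64190, AT3G50300, AT5G19970 and AT3G29075. GLR3.6 and AT1G05170 passed the signal filter only through the wild-type array, where they were high. Wild-type signals of the 12 higher genes ran from 13.0 to 52.4, and those of the 12 lower genes from 39.2 to 196. The enhancer trap lay on the same side of wild type as the knockout in 11 of the 12 higher genes and 9 of the 12 lower ones. Both differences use the same wild-type array, and the genes were chosen by the knockout difference, so these counts are not independent evidence.

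**Figure D4:**
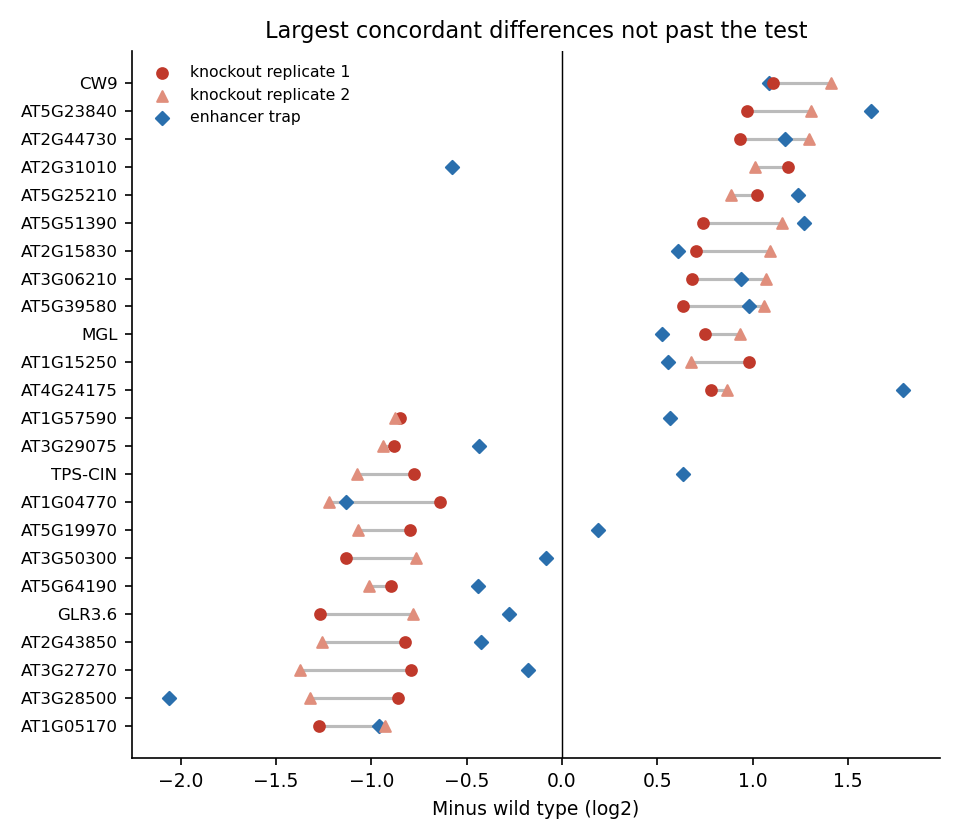
Differences from wild type on the log2 scale for the 12 highest and 12 lowest genes that did not pass the test, with each knockout array and the enhancer trap as separate symbols and a grey line joining the knockout arrays. All differences use the same wild-type array, and a gap between the knockout arrays smaller than their change was part of the choice. Knockout and enhancer trap lie farthest apart in AT2G31010 (1.67) and TPS-CIN (-1.56).

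Brassinosteroid genes could be read only in part, because most are not named in the annotation. Of 14 sterol and brassinosteroid biosynthesis genes 0 were annotated, and of 4 genes for CES and its closest bHLH relatives only CES was. BIM1, a bHLH partner of the brassinosteroid transcription factor BES1, read 142 and 119.9 in the knockout arrays against 112 in wild type, a difference of 0.21 (SE 0.20). BAT1, for an acyltransferase that inactivates brassinosteroids, read 133 and 139 against 136. EXPA8, an expansin gene induced by brassinosteroids, read 302 and 240 against 421, a difference of -0.64 (SE 0.17, adjusted p = 0.17). Both knockout arrays lay below wild type, and the enhancer-trap array was lower still, at 145. Of the 7 other bHLH genes tested, which include MYC3 and MYC4 of jasmonate signalling, 0 passed, set beside 0.183% of all tested probe sets. Their differences ran from -0.38 (bHLH34) to 0.21 (BIM1), with a median of -0.05.

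Of the wall-loosening families, 1 of 12 tested expansins rose (EXLA1) and 0 fell, set beside 0.125% and 0.0586% of all tested probe sets. In both arrays 5 were higher and 2 lower, set beside 30.8% and 34.8% of all tested. The median of the 12 was 0.14. EXLA2 read 91.3 and 111 against 63.1 (0.67, adjusted p = 0.42), and the root-hair expansin EXPA7 read 59.3 and 83.1 against 44.7 (0.64, adjusted p = 0.56). Of 6 xyloglucan endotransglucosylase/hydrolases 0 passed, set beside 0.183% of all tested probe sets. Their median was 0.32, and XTH18, with the largest difference, read 114 and 284 against 130.0, so that its knockout arrays lay on opposite sides of wild type.

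Of 10 glutathione transferases 1 rose (GSTU25) and 0 fell, with a median of -0.08, set beside 0.125% risen and 0.0586% fallen among all tested probe sets. In both arrays 4 were higher and 5 lower, against 30.8% and 34.8% of all tested. GSTU22 read 272 and 356 against 217 (0.52, adjusted p = 0.42), and GSTU16 read 53.8 and 50.9 against 73.3 (-0.48, adjusted p = 0.93). The rise of GSTU25 thus stood beside differences of either sign in its family.

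The starch list held QQS and 2 enzymes. The starch-branching enzyme gene SBE2.2 read 203 and 144 against 233, a difference of -0.44 (adjusted p = 0.729), and DPE1, for an enzyme of starch breakdown, read 118 and 99.5 against 136, at -0.33 (adjusted p = 0.991). All 3 were lower in both arrays, as were 34.8% of all tested probe sets. Only QQS passed, set beside 0.183% of all tested. The nitrate list includes the cluster of transporter genes around AT3G45710. Of its 3 tested members only AT3G45710 rose, set beside 0.125% of all tested probe sets. Its neighbours AT3G45700 and AT3G45680 read 79.8 and 79.1 against 85.4, and 61.1 and 57.8 against 72.8.

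In the hormone and stress lists no tested member passed. Over all tested probe sets 0.183% passed, so 0 is the likely count in lists and families as short as those below. The early auxin genes GH3.3 (151 and 126 against 86.9), IAA29 (100.1 and 93.0 against 66.0) and WES1 (258 and 228 against 223) were higher in both arrays, as were 30.8% of all tested probe sets, with a median of 0.54 and 0 of 3 past the test. The cold genes COR15B, COR47 and COR15A were also higher in both, with a median of 0.30 and 0 of 3 past the test. COR15A passed the signal filter only through the enhancer-trap array, which read 204. For the gibberellin receptors GID1A, GID1B and GID1C the differences ran from -0.17 to -0.04, and 0 of 3 passed. PDF1.2, a jasmonate marker, differed by -0.20, the clock gene GI by -0.36, and the stress genes WRKY53 and STZ by -0.44 and 0.21, none past the test. Of 5 WRKY genes 0 passed, with a median of -0.38. Of 13 genes chosen by a CYP symbol, 25 UDP-glycosyltransferases and 8 beta-glucosidases, 0 passed, with medians of -0.02, 0.03 and -0.02. The CYP symbols are mostly those of cytochromes P450, but CYP59 and CYP71 are cyclophilins. In the flavonoid list DFR (0.27) and UGT78D2 (-0.12) had knockout arrays on opposite sides of wild type. DFR, too, passed the filter only through the enhancer-trap array. The reference genes AT4G34270, PEX4, AT2G28390 and GAPC2 differed by -0.28 to 0.20, and 0 of 4 passed.

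In gene order, within 5 protein-coding genes on either side of CES, 3 genes were tested and 0 passed, with differences from -0.14 to 0.11. The neighbours of the other named genes past the test were read in the same way, and 0 of them passed beside any gene that had tested neighbours. QQS and EXLA1 had no tested neighbours. Over all tested probe sets 0.183% passed, so 0 was the likely count among so few neighbours.

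RNA integrity was read from probe sets at both ends of control transcripts. The 3'/5' ratio of GAPDH was 1.86 and 2.01 in the knockout arrays, 1.70 in wild type, and 1.38 on the enhancer-trap array. The actin ratio was 3.12 in knockout replicate 1, 2.04 in replicate 2 and 2.49 in wild type. The part of RNA integrity in these differences was not tested. The count of 25 depended on the fit: with plastid-encoded probe sets left out it was 47, 24 of them among the 25. It was 2 with median centring over all probe sets, where QQS and GSTU25 passed, 2 without the intensity trend, where QQS and CES passed, and 0 by limma without the signal filter (1211 at an unadjusted p under 0.05).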

How the data were processed

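The authors deposited 1 table of linear signal intensity per probe set, for which the submitters' processing notes name the MAS5 algorithm and the GCOS software; versions and detection calls are not given in the sources used here. The trimmed mean (2% off each end) is 100.0 on every array, so the intensities were already scaled. Precision is limited by the number of arrays.

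The 64 control probe sets were left out. On log2(signal + 1), probe sets with a mean over 4 arrays of 4.58 or more, the 40th percentile, were kept. A model with 3 group means was fitted to all 4 arrays in R 4.3.3 with limma 3.58.1 (lmFit, eBayes with an intensity trend). It has 1 residual degree of freedom and 41.8 prior degrees of freedom. The p-values are two-sided, with Benjamini-Hochberg adjustment over 13648 probe sets; every adjusted p is from this fit unless another is named. The pseudocount makes log2 changes understate those of dim genes. Separate cultures are not named in the labels, and p-values may therefore reflect technical spread only.

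A side within background has only a bound, the mean of the brighter side over the background, written "at least". Of 22746 probe sets, 13513 have 1 gene in the platform annotation, 503 have several and 8730 are not listed; 13436 matched the TAIR10.1 gene table, which gave names and gene order. A gene with several probe sets is represented by the brightest. Named are all probe sets past the test with 1 gene, the 12 highest and 12 lowest others whose smaller change exceeds the gap between the knockout arrays, CES, and up to 4 members of each of 38 lists and families (10 had no tested member). The choice of unnamed probe sets, neighbours and further plastid genes was made with their values in view. The members and lists were chosen with earlier results of these data known.

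The fit was tested on simulated data with known changes. Alternatives tried were the pseudocount, the filter, quantile and median normalization, no trend, and fewer arrays or genes. Tables used Python 3.11.15 and plots matplotlib 3.10.9.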

Additional observations from a re-analysis of the deposited data

Results flagged for a closer look

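For several genes past the test against wild type, the change of the knockout differed from that of the enhancer trap, as tested by the limma contrast between the lines (817 of 13648 probe sets passed that contrast, 5.99%). Both changes use the same wild-type array, which cancels in their difference. The fitted difference of CES was -9.15, but its knockout readings lay within background, so it gives only a bound: the enhancer-trap array was at least 388-fold higher, and CES passed the signal filter only through that array. AT4G19430 differed by -3.46, AT1G26250 by -0.85 and GSTU25 by 0.69 (adjusted p = 0.0159). AT4G19430 was lower than wild type in the knockout and higher in the enhancer trap. Among probe sets without a gene name, 252265_at, which also passed the filter only through the enhancer-trap array, differed by -2.15, 251438_s_at by -1.40 and 246379_s_at by 0.82 (adjusted p = 0.0196).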

How the results depend on the processing

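No paired analysis was possible because knockout and wild type share only 1 replicate number. The count of 25 probe sets past the test, 68.0% of them higher, was 24 with a pseudocount of 16 (21 shared, 58.3% higher), 18 at the 60th percentile filter, 34 with quantile normalization and 25 in the fit of the knockout and wild-type arrays alone (22 shared; CES and 252265_at were not tested there). It was 2 with median centring of each array (QQS and GSTU25; 50.0% higher), 2 without the intensity trend (QQS and CES; 50.0% higher) and 0 by limma without the filter (1211 at an unadjusted p under 0.05). Chosen after seeing the data, median centring over the probe sets kept by the filter gave 59, all 25 included, and leaving out plastid-encoded genes gave 47. The prior degrees of freedom moved with these counts, from 41.8 to 10.7 with median centring, 7.63 without the trend, 6.58 without the filter and 239 without plastid genes. The 12 probe sets 2-fold away in both knockout arrays became 2 with a pseudocount of 16 and 1176 without the filter; with 1 knockout array left out the count was 62 to 95. Knockout against enhancer trap gave 511 with median centring, 335 without the trend and 231 without the filter, against 817. Of 17 probe sets past the test that were named, all kept their sign in the settings where they were tested. With 1 knockout array left out no test could be had, since no residual degree of freedom is left. QQS passed in 7 of 8 tested alternatives, failing without the filter (adjusted p = 0.431).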

Other observations

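Over all 22746 probe sets 9 had both knockout arrays at or above 21.3, a level clear of the background, with wild type within background, and 3 had the reverse; the genes named here were chosen after their values were seen. AT5G42140 read 30.8 and 24.7 in the knockout arrays against 10.4 in wild type, and 18.5 on the enhancer-trap array, at least 2.60-fold higher. AT2G22610 read 26.9 and 26.5 against 8.90, and AT3G53320 read 25.3 and 24.3 against 8.09 with 25.4 in the enhancer trap. In the reverse direction AT2G14380 read 24.6 in wild type and 2.01 and 6.54 in the knockout arrays. None of these 4 genes passed the signal filter, so they have no test.

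Besides the 17 annotated as plastid-encoded, 66 probe sets were at least 2-fold apart between the knockout arrays. Several of these carry no gene in the annotation used, so whether all lie outside the plastid genome was not tested. Of the 66, 46 were also lower in replicate 1. They include STZ, a zinc-finger gene of rapid stress responses (156 and 337, with 199 in wild type), XTH18 (114 and 284, with 130.0) and AT4G29780 (76.4 and 208, with 71.7). In these 3 genes, as in psaA, psbD and atpF, replicate 2 was the highest of the 4 arrays. PDF1.2b, a defensin gene, went the other way, at 139 and 59.8 with 126 in wild type.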
